A study of Arabidopsis thaliana with 32 samples.

Results

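The comparison concerns total RNA from roots of Arabidopsis thaliana plants moved to magnesium-free medium (MgD) for 1 day, set against roots of plants kept for the same 1 day in complete medium (CK). It comprises 6 of the 24 libraries analysed here, 3 MgD and 3 CK, and all 20311 of 27655 genes that passed a filter on low counts. All plants were 6 weeks old, were grown in hydroponics under 10 h of light and 14 h of dark, and carried p35s:HF-RPL18, a tagged ribosomal protein L18 driven by the 35S promoter, so both groups shared the transgene. In the MgD medium sodium sulfate took the place of magnesium sulfate, so that sodium differed along with magnesium while sulfate was kept. Roots of the same treatments also gave ribosome-bound RNA, pulled down through the tagged ribosomes (TRAP), and the shoots gave both kinds of RNA. The labels name the replicates as independent but not which plants each one came from, so the p-values given here speak of library-to-library spread alone, which may be technical.

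Magnesium is a cofactor of ATP-using enzymes, holds ribosomes together and sits at the centre of chlorophyll. Roots take it up through CorA-type carriers of the MGT family and store it in vacuoles with the help of proton-coupled exchangers. Sulfate is taken up and reduced through a pathway of its own: ATP sulfurylase (APS) activates it, adenylylsulfate reductase (APR) reduces it toward cysteine, and adenylylsulfate kinase (APK) sends it to sulfated compounds. A set of genes induced when sulfate runs short, among them SDI and LSU genes, is widely used to read sulfur status.

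Total counts were 29502247, 17002677 and 6147531 in MgD replicates 1 to 3, and 19773940, 33956906 and 32309957 in CK replicates 1 to 3, so MgD replicate 3 was the shallowest. This library exists in 2 versions: its column in the deposited TPM table corresponds to 11727654 whole reads, 1.91 times the reads of its count column. The 2 versions were no scaled copies of each other. Their log2 CPM values correlated at r = 0.983 over all 27655 genes, below the 0.993 between the count column and CK replicate 3. The results below use the count column, and the list counts and many of the gene values are also given with the TPM-column reads. The first principal component of the 6 libraries held 41.9% of the variance and did not separate the treatments, with CK replicate 1 and MgD replicate 3 at its ends.

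The tissue label held against markers. CASP1, a scaffold protein of the endodermal Casparian strip, averaged 71.8 ± 7.10 CPM in MgD roots and 100.2 ± 30.0 CPM in CK roots (SD, n = 3 each), against 0.289 CPM in CK shoots. Nuclear photosynthesis genes made up 0.0949%, 0.0971% and 0.168% of counts in the MgD root libraries and 0.226%, 0.192% and 0.217% in the CK root libraries. A set of 205 transcripts chosen as at least 100 times higher in shoot total RNA than in root TRAP RNA, and at 50 CPM or more in shoots, was summed in the same way. Its level in root total RNA was 0.577%, 0.636% and 1.26% of the shoot CK level in MgD libraries and 1.21%, 1.26% and 1.45% in CK libraries. In bulk RNA, fewer cells of a type and less RNA per cell cannot be told apart.

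No gene was called changed. Counts were tested with edgeR's quasi-likelihood test over the 12 root libraries, and the smallest Benjamini-Hochberg adjusted p among 20311 genes was 0.99986. An unadjusted p under 0.05 was reached by 503 genes, 2.48% of those tested, of which 154 were higher (0.758%) and 349 were lower (1.72%) in MgD roots. If no gene changed, about 1016 genes would be expected to reach it. In that case 3 exchangeable libraries would also lie entirely to 1 side of the other 3 for a share of 0.1 of genes. The 3 MgD libraries lay entirely above the 3 CK libraries for 945 genes (4.65%) and entirely below them for 1131 genes (5.57%), 10.2% of genes in all. With the TPM-column reads these counts were 591 genes (2.91%) above and 954 genes (4.7%) below, and 1006 genes (4.95%) stood apart in the same direction under both versions. Only 44 genes (0.217%) were both above and at least 2-fold higher, and 126 genes (0.62%) both below and at least 2-fold lower. The log2 fold change was above 0 for 47.9% of genes, and the median of all genes was -0.01. In simulated counts of this design the test recovered 49% of genes changed 2-fold and 95% of genes changed 4-fold. The changed genes were drawn only from genes above a minimum mean count in root total RNA, so recovery at lower counts was not measured. The simulated counts were also drawn independently for each library, without the deviations that total and TRAP libraries share in the real data. Recovery in the real libraries can therefore differ from these values and was not measured. DESeq2 called 1 gene, PIP1C, and limma on log2(TPM + 1) called 1 gene, FRO5, both lower in MgD roots. The genes named below are thus described by their values, and none of them is called changed unless a tool is named.

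Among the higher genes named by p or size, the largest fold change was that of a sulfate-starvation gene, ATSDI1. MYB72 and LSU1, described below as members of their lists, had larger fold changes at an average log2 CPM below 1. ATSDI1, a sulfur-deficiency-induced gene whose product represses glucosinolate synthesis, was at 57.2, 60.9 and 39.1 CPM, counts scaled to library size with TMM factors, in MgD replicates 1 to 3, against 16.2, 20.6 and 11.8 CPM in the CK replicates. The groups did not overlap, and the log2 fold change was 1.70 ± 0.51 (SE). With the TPM-column reads, however, MgD replicate 3 was at 9.53 CPM, below all CK libraries. SHM7, a serine hydroxymethyltransferase-like protein tied to sulfur status, was at 168, 175 and 114 CPM in MgD roots and at 66.9, 83.5 and 71.6 CPM in CK roots, a log2 fold change of 1.04 ± 0.33. Its TPM-column value for MgD replicate 3, 70.4 CPM, lay within the CK range. MgD replicates 1 and 2 were thus high for both genes, and the position of the third library depended on which of its deposited columns was read.

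The 250 bases before the annotated start of ATSDI1 and SHM7 are shown because these genes had the largest differences of the sulfur lists among non-overlapping genes. They are read from RefSeq TAIR10.1 on the gene's own strand and end 1 base before the start. Capitals mark GAGAC or its complement GTCTC, the core of the sulfur-responsive element described in Arabidopsis. The ATSDI1 window is chr5:19807854-19808103 and the SHM7 window is chr1:13698740-13698989, both on the minus strand.
ATSDI1: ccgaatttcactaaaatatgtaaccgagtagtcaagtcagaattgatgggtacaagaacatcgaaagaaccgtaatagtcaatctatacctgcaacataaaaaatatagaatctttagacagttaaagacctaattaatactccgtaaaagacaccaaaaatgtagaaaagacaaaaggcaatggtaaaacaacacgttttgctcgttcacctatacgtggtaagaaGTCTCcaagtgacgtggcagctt
SHM7: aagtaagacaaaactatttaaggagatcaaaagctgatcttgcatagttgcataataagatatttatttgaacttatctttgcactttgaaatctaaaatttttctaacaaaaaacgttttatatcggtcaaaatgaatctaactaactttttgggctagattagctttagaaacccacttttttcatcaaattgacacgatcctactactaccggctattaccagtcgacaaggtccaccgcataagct

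ATSDI1 held 1 match, which starts 23 bases before the gene, and SHM7 held none. Of all 27443 protein-coding genes with such a window, 25.8% held the core on either strand. Among the tested members of the lists it was held by 4 of 14 sulfate-starvation genes and 1 of 16 sulfate-assimilation genes. A match of letters is a description and not a binding site.

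The sulfate-starvation list as a whole had 14 tested members, of which 13 had a log2 fold change above 0 in MgD roots. Its median was 0.47, against -0.01 for all genes, and 2 members were higher without overlap (14.3%, against 4.65% of all genes). LSU2, one of the small LSU proteins that accumulate under low sulfur, was at 105, 60.0 and 35.9 CPM in MgD libraries and at 43.3, 24.6 and 18.0 CPM in CK libraries. These groups overlapped, since CK replicate 1 was above MgD replicate 3. LSU1 was at 8.84, 1.96 and 0.772 CPM in MgD roots and at 2.86, 0.238 and 0.153 CPM in CK roots, also overlapping. The median of the sulfate starvation list was 0.91 without CK replicate 3, 0.43 without MgD replicate 3 and 0.40 without CK replicate 1. With the TPM-column reads it was 0.37 and no member stood apart. Across all genes the root TRAP libraries stood apart for 7.13% (higher) and 6.86% (lower). In root TRAP RNA the list's median was 0.08 with no member apart, and ATSDI1 averaged 58.2 ± 24.3 CPM in MgD and 49.5 ± 36.3 CPM in CK (SD, n = 3 each). The difference between the total and TRAP responses was called for no gene by edgeR (968 genes, 4.77%, had an unadjusted p under 0.05). DESeq2 called 5 genes for it, none of them in the sulfur lists.

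Enzymes of sulfate assimilation pointed the same way in part. Of 16 tested members, 4 were higher without overlap and 1 was lower, with a list median of 0.14. These were 25% and 6.25% of the list, against 4.65% and 5.57% of all genes. APR3 was at 446, 356 and 233 CPM in MgD roots and at 173, 215 and 154 CPM in CK roots, and its log2 fold change was 0.93 ± 0.34. APR1, another isoform of the reductase, was at 564, 593 and 417 CPM in MgD roots and at 193, 344 and 338 CPM in CK roots. APS3, an ATP sulfurylase, was at 55.0, 45.0 and 34.8 CPM in MgD roots and at 29.1, 34.5 and 30.8 CPM in CK roots, so MgD replicate 3 only just cleared the CK libraries. APK, an adenylylsulfate kinase, was at 222, 260.2 and 264 CPM in MgD libraries and at 159, 191 and 216 CPM in CK libraries. The third reductase isoform, APR2, overlapped. With the TPM-column reads none of these 4 genes stood apart. APS3 was also higher without overlap in TRAP RNA, at 57.5 ± 7.71 CPM in MgD and 42.4 ± 0.744 CPM in CK (SD, n = 3 each).

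**Figure D1:**
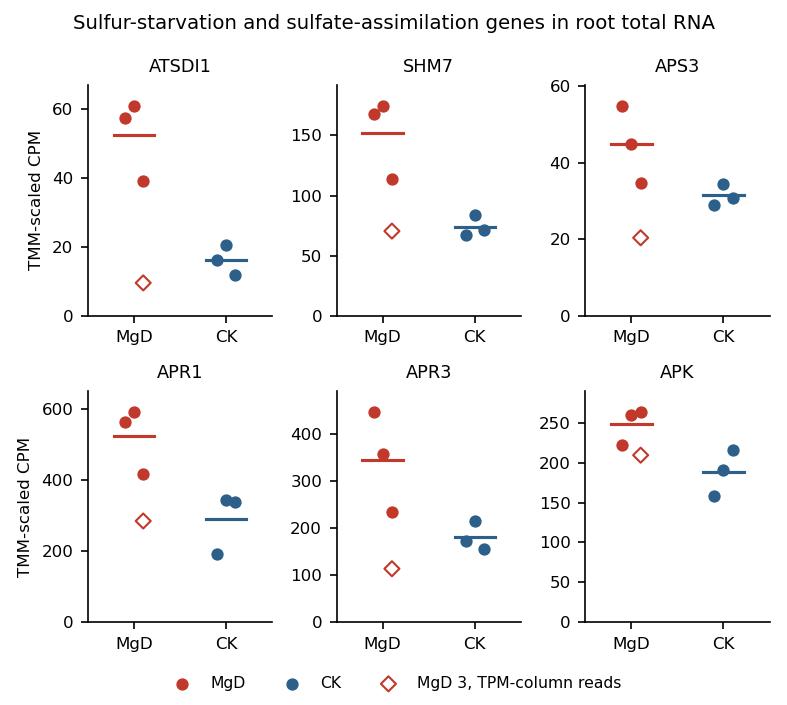
TMM-scaled CPM of 6 sulfur genes in root total RNA, with 1 filled point per library, MgD left of CK, and a line at each group mean. The open diamond is MgD replicate 3 computed from its TPM-column reads; for ATSDI1 it is at 9.53 CPM, below the CK points, while the filled MgD points start at 39.1 CPM.

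The other higher genes were of mixed function. By the rule of smallest p among annotated genes without overlap, 12 were named, with log2 fold changes between 0.44 and 1.70. GSTL1, a lambda-class glutathione transferase, was at 21.9, 23.5 and 13.1 CPM in MgD roots and at 5.07, 11.6 and 8.51 CPM in CK roots. It stayed above all CK libraries with the TPM-column reads, at 15.7 CPM, as did CML23, a calmodulin-like protein, and PP2-A10, a phloem lectin-like protein. These were 3 of the 12. CBP60G, a calmodulin-binding regulator of salicylic acid synthesis, was at 221, 132 and 111 CPM in MgD roots and at 51.8, 97.4 and 63.9 CPM in CK roots, but at 38.5 CPM by the TPM-column reads. Its higher level in MgD was also present without overlap in TRAP RNA, at 70.3 ± 19.9 CPM in MgD and 39.1 ± 14.0 CPM in CK (SD, n = 3 each). The salicylic acid list had 3 of 15 members higher without overlap (CBP60G, SARD1 and NPR1), a median of 0.23, and with the TPM-column reads 0 higher and 3 lower. Over all genes 4.65% were higher without overlap by counts, and 4.7% were lower without overlap with the TPM-column reads. The remaining genes were VAMP723, a vesicle SNARE, MYB15, a regulator of defence phenylpropanoids, bHLH34, a regulator of iron homeostasis, BGLU46, a monolignol glucosidase, and SPX1, a phosphate-sensing repressor. MYB15 was at 56.1, 40.5 and 36.0 CPM in MgD roots and at 29.1, 33.3 and 23.9 CPM in CK roots, against 6.67 CPM for MgD replicate 3 by the TPM-column reads. Of the 12 genes, 9 had a log2 fold change above 0 in root TRAP RNA too and 3 were higher there without overlap. CYP71A13, an enzyme of camalexin synthesis named for its size of change, was at 1.85, 3.39 and 4.63 CPM in MgD roots and at 1.57, 1.12 and 1.84 CPM in CK roots.

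FRO5 had the largest fold difference of the annotated genes named by p or size. It encodes a ferric or cupric chelate reductase of the FRO family, whose members reduce metal ions before uptake. It was at 0.462, 1.37 and 2.32 CPM in MgD roots, from 16, 28 and 18 reads, against 12.1, 9.95 and 11.5 CPM in CK roots, from 263, 418 and 453 reads. The groups stood far apart, with a log2 fold change of -3.19 ± 0.75, and the TPM-column reads put MgD replicate 3 at 0.136 CPM. limma on log2(TPM + 1) called it, with a log2 fold change of -2.70 and a Benjamini-Hochberg adjusted p of 0.00494, from the TPM-column version of MgD replicate 3. Over all 19 settings tried its adjusted p ranged between 0.00494 and 1.00, and 2 settings, both limma on log2(TPM + 1), called it. FRO4, its close neighbour and paralog, added after its values were seen, was at 6.04, 11.8 and 10.8 CPM in MgD roots and at 12.1, 19.9 and 21.6 CPM in CK roots. How reads shared by the 2 paralogs were assigned was not tested, so the split between them is uncertain. COPT2, a high-affinity copper transporter, was also lower, at 21.6, 22.9 and 14.2 CPM in MgD roots and at 73.2, 36.5 and 25.4 CPM in CK roots. It was lower without overlap in TRAP RNA as well, at 3.30 ± 1.06 CPM in MgD and 7.57 ± 3.05 CPM in CK (SD, n = 3 each). The redox and copper list otherwise had a median of 0.00, with 3 of 18 members lower without overlap under both versions of MgD replicate 3. That was 16.7% of the list, against 5.57% of all genes by counts.

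Most of the other lower genes were leaf-type genes. Of the 12 annotated genes named by smallest p among those lower without overlap, 8 had at least 10 times more CPM in shoot CK than in root CK total RNA, and 11 stayed lower without overlap with the TPM-column reads. In root TRAP RNA 6 of the 12 had a log2 fold change below 0, and 1 was lower there without overlap. LHCA1, an antenna protein of photosystem I, was at 17.7, 16.1 and 25.2 CPM in MgD roots and at 39.1, 34.8 and 39.6 CPM in CK roots, with a log2 fold change of -0.95 ± 0.23. SBPASE, a Calvin cycle phosphatase, was at 1.96, 2.75 and 3.35 CPM in MgD roots and at 8.58, 6.66 and 8.74 CPM in CK roots. PMDH2, a peroxisomal malate dehydrogenase, was at 1.30, 2.35 and 5.66 CPM in MgD roots and at 9.87, 7.52 and 10.6 CPM in CK roots. In each of these, MgD replicate 3 was the MgD library nearest to the CK libraries. HPR, the photorespiratory hydroxypyruvate reductase, PSBQA and PETC of the photosynthetic electron chain, RCA, the activase of Rubisco, and KCS6, an elongase of cuticular wax synthesis, complete the 8. The genes of the 12 without such a shoot excess were FRO5, PIP1C, BUD2, an S-adenosylmethionine decarboxylase of polyamine synthesis, and RGL3, a DELLA repressor of gibberellin responses. BUD2 was at 5.35, 5.40 and 4.89 CPM in MgD roots and at 7.24, 9.04 and 7.29 CPM in CK roots. RGL3 was at 4.16, 3.14 and 2.83 CPM in MgD roots and at 7.38, 5.43 and 5.46 CPM in CK roots.

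As a list, all 41 tested nuclear photosynthesis genes had a log2 fold change below 0 in MgD roots, with a median of -0.92 and a range of -1.45 to -0.53, and 31 were lower without overlap (36 with the TPM-column reads). Over all genes 5.57% were lower without overlap by counts and 4.7% with the TPM-column reads. In root TRAP RNA the median was -0.18 and 1 gene was lower without overlap, and in shoot total RNA the median was -0.09. The list's summed share averaged 0.120% ± 0.0419 of counts in MgD roots and 0.212% ± 0.0178 in CK roots (SD, n = 3 each), and the exact two-sided permutation test gave the smallest p that 3 against 3 allows, 0.1. Among the 205 shoot-typical transcripts, 190 were tested, 179 were below 0 and 52 were lower without overlap (102 with the TPM-column reads), with a median of -0.86. In root TRAP RNA the shoot-typical median was -0.44, with 22 lower and 2 higher without overlap. The summed share of the shoot-typical set was 0.0432%, 0.0477% and 0.0945% of counts in MgD roots and 0.0906%, 0.0942% and 0.108% in CK roots. By counts MgD replicate 3 lay within the CK range, and the exact two-sided permutation p was 0.3. By the TPM-column reads, at 0.0714%, MgD replicate 3 lay below all CK libraries, and the same test gave 0.1, the smallest p possible. Chloroplast-encoded genes had a median of -0.28 with 10 of 63 lower without overlap (15 with the TPM-column reads), and their summed share was 0.108%, 0.112% and 0.164% in MgD roots and 0.156%, 0.165% and 0.159% in CK roots. The TPM-column reads put MgD replicate 3 at 0.148%, below all CK libraries. In root TRAP RNA the chloroplast-encoded median was -1.33, with 22 genes lower and 1 higher without overlap. Their summed share of TRAP counts was low, and the groups overlapped. It was 0.00624%, 0.00495% and 0.00493% in MgD and 0.0165%, 0.0119% and 0.00611% in CK TRAP libraries. Without MgD replicate 3 the photosynthesis median was -1.28, and with its TPM-column reads it was -1.04. Of the 12 genes named as lower, 7 belong to the photosynthesis or shoot-typical lists, so these descriptions share genes. The part of any shoot material in the root samples was not tested.

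**Figure D2:**
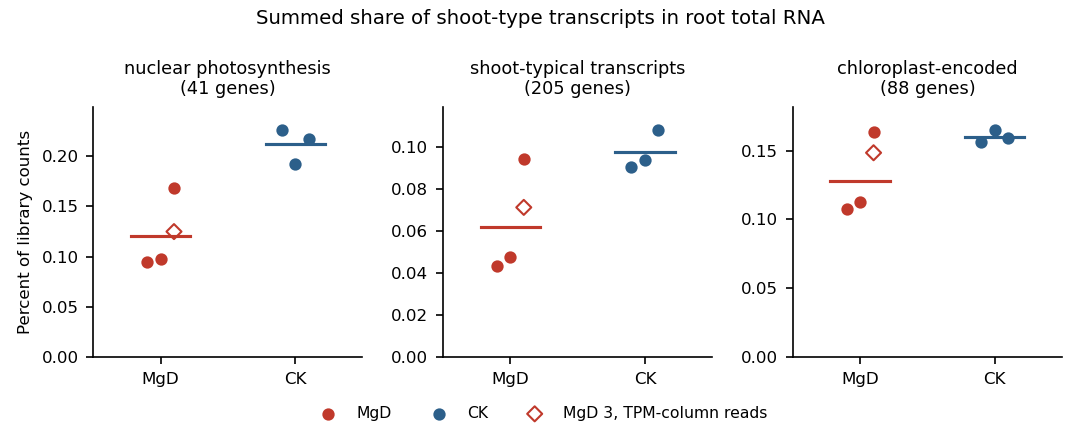
Percent of library counts summed over 41 nuclear photosynthesis genes, 205 shoot-typical transcripts and 88 chloroplast-encoded genes in root total RNA, MgD left of CK, 1 point per library with group means as lines. MgD replicate 3 is the highest MgD point in each panel, at 0.168%, 0.0945% and 0.164%, and its TPM-column version (open diamond) lies lower.

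Aquaporins, the channels that carry water across plasma and vacuolar membranes, leaned lower in total RNA. All 21 tested genes had a log2 fold change below 0, with a median of -0.37, and 5 were lower without overlap: PIP1C, PIP3, TIP2;2, TIP2;3 and NLM1. Those 5 were 23.8% of the family, against 5.57% of all genes. PIP1C, a plasma membrane aquaporin, was at 711, 726 and 708 CPM in MgD roots and at 974, 958 and 1095 CPM in CK roots. Its log2 fold change was -0.50 ± 0.13, and DESeq2 gave -0.49 with an adjusted p of 0.0176, the only gene DESeq2 called. Over all 19 settings its adjusted p ranged between 0.0176 and 1.00. The TPM-column reads put MgD replicate 3 at 963 CPM, within the CK range. TIP2;3, a vacuolar aquaporin, was at 172, 229 and 226 CPM in MgD roots and at 419, 276 and 341 CPM in CK roots, and the TPM-column value was 374 CPM. PIP3 was at 280.2, 269 and 255 CPM in MgD roots and at 387, 299 and 327 CPM in CK roots. With the TPM-column reads the median of the family was -0.18 and 1 gene, TIP2;2, stayed lower without overlap. The family's summed share of counts overlapped, at 1.73%, 2.04% and 1.78% in MgD roots and 2.32%, 2.004% and 2.22% in CK roots, and the exact two-sided permutation p was 0.2 (0.3 with the TPM-column reads). Without CK replicate 1, which was the highest library for PIP3 and TIP2;3, the median was -0.17.

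In TRAP RNA the same family leaned the other way, with a median of 0.15 and 5 genes higher without overlap. PIP1C averaged 3045 ± 57.5 CPM in MgD and 2451 ± 135 CPM in CK TRAP libraries (SD, n = 3 each). DELTA-TIP, a vacuolar aquaporin, averaged 613 ± 66.4 CPM in MgD and 412 ± 82.5 CPM in CK TRAP libraries, against 71.1 ± 12.5 CPM in MgD and 93.5 ± 23.0 CPM in CK total RNA (SD, n = 3 each). For PIP1C the total RNA response was below the TRAP response by a log2 difference of -0.81 ± 0.18 in edgeR, which did not pass adjustment over all genes. DESeq2 gave -0.80 for it with an adjusted p of 0.000258. In shoot total RNA the family's median was -0.12, with all 21 below 0.

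**Figure D3:**
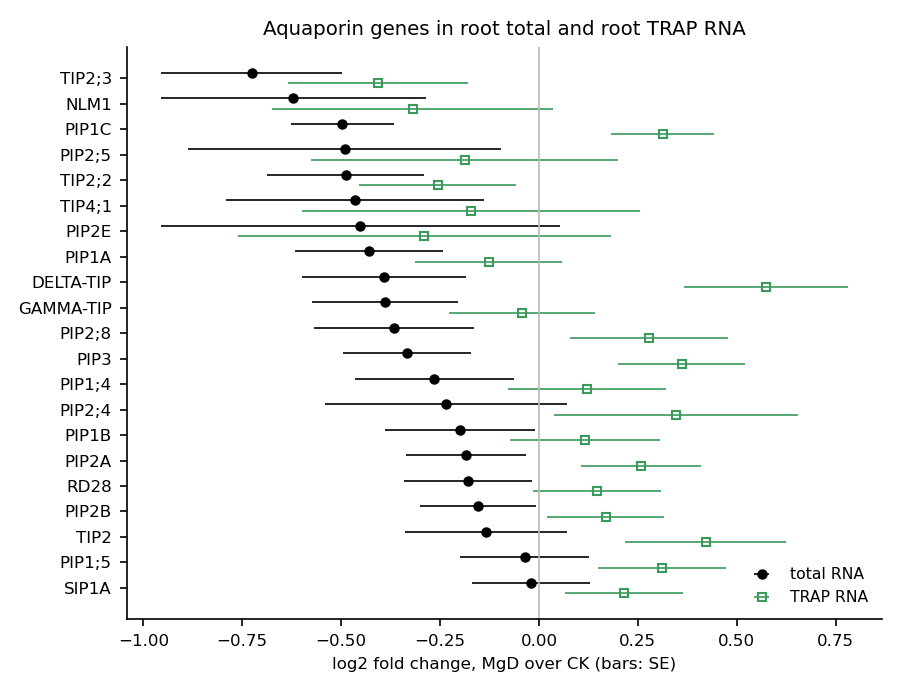
log2 fold change of MgD over CK for the 21 aquaporin genes in root total RNA (filled) and root TRAP RNA (open), with SE bars, ordered by the total RNA value. All total RNA points lie left of 0, while PIP1C is at -0.50 in total RNA and 0.31 in TRAP RNA.

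**Figure D4:**
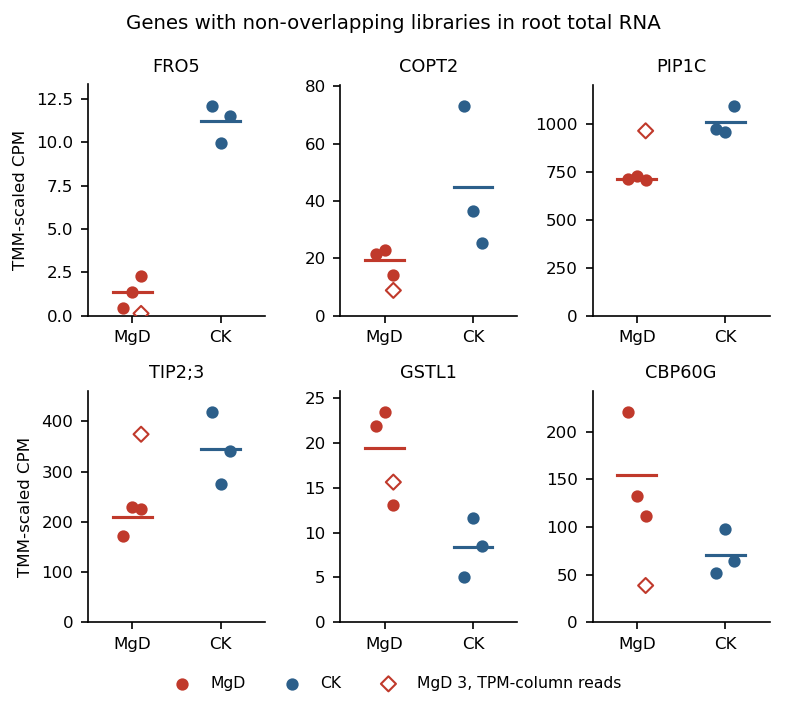
TMM-scaled CPM of 6 other genes in root total RNA, MgD left of CK, with 1 point per library, group means as lines, and the TPM-column version of MgD replicate 3 as an open diamond. FRO5, COPT2 and GSTL1 keep their groups apart with the diamond, and PIP1C, TIP2;3 and CBP60G do not.

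Magnesium transporter genes had log2 fold changes on both sides of 0. Of 11 tested genes in the list, 6 had a log2 fold change above 0 and 5 below, between -0.19 and 0.52, with a median of 0.03 and no gene apart in the count column. MGT4 was lower without overlap with the TPM-column reads, at 32.1 CPM in MgD replicate 3, and higher without overlap in TRAP RNA, at 65.1 ± 4.16 CPM in MgD and 57.2 ± 1.12 CPM in CK (SD, n = 3 each). By counts it was at 42.3, 41.7 and 44.0 CPM in MgD roots and at 46.7, 43.5 and 43.4 CPM in CK roots. MGT6, a carrier needed in Arabidopsis roots under low magnesium, was at 25.8, 28.7 and 22.1 CPM in MgD roots and at 29.6, 24.7 and 24.4 CPM in CK roots, a log2 fold change of -0.03 ± 0.17. MGT1 was at 4.94, 5.30 and 7.34 CPM in MgD roots and at 5.58, 6.12 and 6.68 CPM in CK roots, a log2 fold change of -0.09 ± 0.21. The largest value belonged to AT5G09720, a CorA-like magnesium transporter by its RefSeq product name, at 5.43, 5.89 and 9.14 CPM in MgD roots and 3.32, 4.88 and 5.76 CPM in CK roots, which overlapped. The other members were MGT2, MGT3, MGT4, MGT7, MGT9, MGT10, the vacuolar magnesium/proton exchanger MHX and the channel CNGC10, and their log2 fold changes lay between -0.19 and 0.29 with standard errors between 0.11 and 0.32. Among calcium and proton exchange genes, 3 of 18 were higher without overlap (CAX2, CAX5 and AT3G63380), with a median of 0.15. That was 16.7% of the list, against 4.65% of all genes. CAX2, a vacuolar cation/proton exchanger, was at 53.3, 52.2 and 56.2 CPM in MgD roots and at 40.8, 45.7 and 46.4 CPM in CK roots. In the list, 3 members were higher without overlap under the TPM-column reads, CAX2 among them at 66.5 CPM in MgD replicate 3. CAX3, a paralog, was at 29.2, 29.0 and 14.2 CPM in MgD roots and at 15.0, 17.4 and 11.4 CPM in CK roots, overlapping in total RNA but higher without overlap in TRAP RNA.

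Iron-deficiency genes were highest as a sum in MgD replicate 2. Their summed share of counts was 0.379%, 0.617% and 0.369% in MgD roots and 0.259%, 0.341% and 0.358% in CK roots. The list had 20 of 22 genes above 0 and a median of 0.49. Without overlap 4 were higher and 1 lower (18.2% and 4.55%, against 4.65% and 5.57% of all genes). With the TPM-column reads these counts were also 4 higher and 1 lower. IRT1, the main root iron transporter, was at 299, 809.5 and 124 CPM in MgD roots and at 177, 249 and 126 CPM in CK roots, so that MgD replicate 2 was far above and MgD replicate 3 below all CK libraries. FRO2, the ferric reductase that works with it, was at 155, 459 and 63.6 CPM in MgD roots and at 62.0, 137 and 82.3 CPM in CK roots. FRU, the transcription factor FIT that controls both, was at 92.2, 130.0 and 73.4 CPM in MgD roots and at 56.6, 58.2 and 58.8 CPM in CK roots, without overlap, and at 90.2 CPM by the TPM-column reads. MYB72, a regulator of coumarin secretion under low iron, was at 2.22, 5.20 and 1.54 CPM in MgD roots and at 0.738, 1.00 and 0.408 CPM in CK roots. Without MgD replicate 2 the median of the iron deficiency list was 0.14, and it was 0.16 in a fit with a block for the number each library has in the deposited library list. In TRAP RNA the median of the list was -0.20 and none of its genes stood apart. Of 18 phosphate-starvation genes, 4 were higher (SPX1, SPX3, PHF1 and GPT2) and 1 lower (SQD2) without overlap, with a median of 0.16, and none stood apart with the TPM-column reads. By counts these were 22.2% and 5.56% of the list, against 4.65% and 5.57% of all genes. SPX1 was at 17.8, 23.4 and 20.3 CPM in MgD roots and at 10.5, 12.9 and 15.8 CPM in CK roots.

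Abscisic acid response genes had 3 of 19 members lower without overlap (RD22, RD26 and COR47, and 2 genes in all with the TPM-column reads) and a median of -0.11. By counts that was 15.8% of the list, against 5.57% of all genes. RD22, a dehydration-response gene, was at 8.84, 10.6 and 12.4 CPM in MgD roots and at 20.8, 18.9 and 17.5 CPM in CK roots, and its shoot CK level was 91.8 times its root CK level. Markers of root cell types gave no shift in common. Medians were -0.18 for root hair, -0.05 for endodermis and Casparian strip, 0.23 for suberin, 0.09 for xylem, 0.10 for phloem and -0.19 for root tip genes, and at most 1 gene per list and direction stood apart. Of 12 guard cell and shoot epidermis markers 4 were tested, with a median of -0.25. Of the mitochondria-encoded genes 24 of 122 were tested, with a median of -0.32, and without CK replicate 1 the median was -0.04. Without overlap 2 were higher and 4 lower (8.33% and 16.7%, against 4.65% and 5.57% of all genes). With the TPM-column reads the root hair median was 0.50. PRP3, a root hair wall protein, shows how, at 4.62, 4.76 and 2.06 CPM in MgD roots and at 8.76, 1.81 and 6.93 CPM in CK roots, but 25.2 CPM for MgD replicate 3 by the TPM-column reads.

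**Figure D5:**
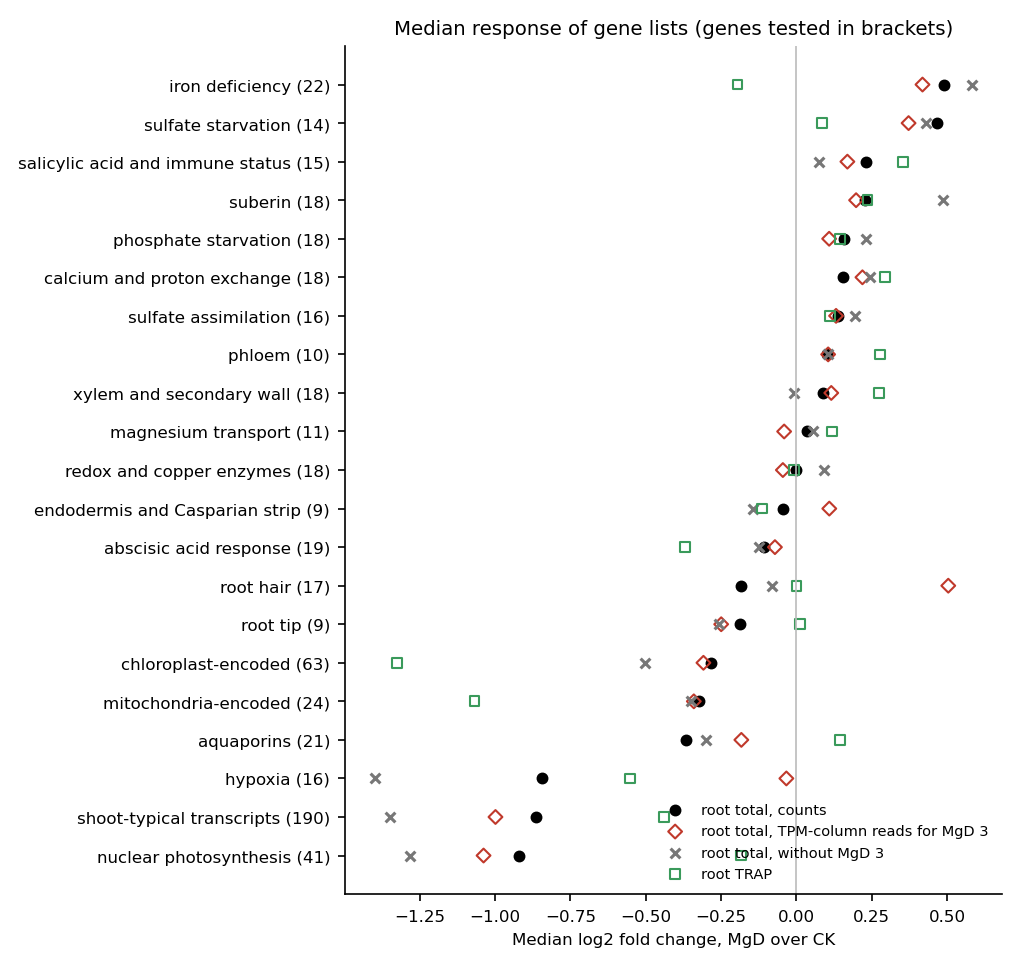
Median log2 fold change of MgD over CK for each gene list in root total RNA by the count columns (filled circle), with the TPM-column reads for MgD replicate 3 (diamond), without that library (cross), and in root TRAP RNA (square). The photosynthesis list is at -0.92, -1.04, -1.28 and -0.18 in that order, and the root hair list is at -0.18 by counts and 0.50 by TPM-column reads.

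The root response was also set against the shoot response in total RNA, in a fit of all 24 libraries. Of 21163 genes, 5 (0.0236%) differed at an adjusted p under 0.05, all with a lower value in the root comparison: AT2G29290, BBX15, AT5G50915, MYB16 and NdhN. BBX15, a B-box zinc finger protein, had 24, 20 and 6 reads in MgD roots and 44, 116 and 106 reads in CK roots, and its CPM averaged 344 ± 38.5 in MgD shoots and 309 ± 11.5 in CK shoots (SD, n = 3 each). NdhN, a subunit of the chloroplast NDH complex, had 1, 2 and 0 reads in MgD roots and 13, 16 and 18 reads in CK roots. AT2G29290, AT5G50915 and MYB16, a regulator of epidermal cell shape and cuticle, had no read in any MgD root library. With 3 reads over the group put in place of none in the count column, they were 8.77-fold, 4.08-fold and 7.34-fold lower in MgD than in CK roots. These values pool the libraries of each group and are no bounds. In CK roots AT2G29290 had 11, 16 and 16 reads, AT5G50915 had 4, 10 and 6, and MYB16 had 12 in each library. The TPM-column reads of MgD replicate 3 were 2 for AT2G29290, 0 for AT5G50915 and 6 for MYB16. Each of the 5 had between 58.3 and 175 times more CPM in shoot CK than in root CK total RNA. In the same fit of 24 libraries, 7 genes (0.0331%) were called between MgD and CK roots, all lower: these 5, TL29, a thylakoid lumen protein, and AT3G48200. Most low counts were even numbers, as they are where both mates of a pair are counted, so the fragments behind them are fewer than the reads.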

How the data were processed

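Total RNA was extracted with TRIzol and made into mRNA libraries, per the labels' protocols. Reads were processed with FastQC, Trimmomatic, STAR 2.7.6a and Subread 2.0.0, per the submitters' processing notes, whose settings and genome build are not given in the sources used here. The deposited tables hold raw counts per gene and TPM values. Gene lengths implied by the ratio of the deposited counts and TPM values matched RefSeq TAIR10.1 exon lengths (tolerance 0.001) for 99.3% of genes compared. For MgD replicate 3 in root total RNA, the deposited TPM values did not come from the deposited counts; every TPM value above 0 was a whole number of reads (tolerance 0.05), and these reads were used as an alternative.

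Counts of the 12 root libraries were filtered with filterByExpr, scaled by TMM and tested with edgeR 4.0.16 (quasi-likelihood, Benjamini-Hochberg). The root and shoot responses were compared over 24 libraries. Values are TMM-scaled CPM, and levels were compared within genes only. DESeq2 1.42.0 and limma 3.58.1 (pseudocounts 1 and 0.1) were alternatives, beside RLE scaling, no filter, other sets of libraries, replicate blocks and leaving out each library. Total and TRAP libraries of the same treatment and title number deviated together (correlations of 0.19 to 0.43 in 6 of 6 pairs), so their pairing was tried as a block. The test was checked on simulated counts. Named genes are those with the 12 smallest p and 6 largest fold changes in each direction among annotated genes without overlap and with an average log2 CPM of at least 1, those called in 24 libraries, all magnesium transporters, and the 5 members with the smallest p of any list described. Of 690 list entries, 13 could not be matched by name and were dropped. The genes and lists were chosen with earlier results of these data known. The labels also hold 8 samples that are not analysed here.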

Additional observations from a re-analysis of the deposited data

Results flagged for a closer look

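5 genes had a response in root total RNA that differed from that in shoot total RNA, by the test of that difference in edgeR over 24 libraries. The fitted log2 difference (root response minus shoot response) was -6.34 for AT2G29290, -1.80 for BBX15, -5.63 for AT5G50915, -6.41 for MYB16 and -3.16 for NdhN. For AT2G29290, AT5G50915 and MYB16 no read was counted in any MgD root library, so these fitted values depend on the prior count and are no bounds. All rest on few root reads, at most 116 in any library. Their number was 22 without MgD replicate 3 of root total RNA and 2 with its TPM-column reads, of which 1 gene, AT5G50915, was among the 5. No explanation was tested.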

How the results depend on the processing

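The count of genes called between MgD and CK roots was 0 in the main test and 0 under every other setting except 4: DESeq2 called 1, edgeR over all 24 libraries 7, limma on log2(TPM + 1) 1, and the same with no filter 2. The replicate block, by title number or by original library number, also gave 0. MgD and CK root total libraries with the same title number correlated at 0.33, -0.03 and 0.32 in their deviations from the group means, so title numbers were not taken to pair them; the 2 pairs that also share an original number (the number in the deposited library list) are those at 0.33 and 0.32. With the original number as a block the root hair median was -0.64 and the hypoxia median -0.45. The lowest and highest counts on leaving out each library were 0 and 0. For the difference of the total and TRAP responses the count was 0, except 5 in DESeq2, 0 with total and TRAP RNA paired as a replicate block (chosen after seeing the data; 1720 genes at an unadjusted p under 0.05), and 0 on leaving out each library. For root against shoot the main 5 became 11 in DESeq2, 0 over the 12 total RNA libraries, 0 and 3 in limma on log2(TPM + 0.1) and log2(TPM + 1), 8 in limma with no filter, 2 with the TPM-column reads, 2 under either replicate block, and between 0 and 22 on leaving out each library. It was 0 without MgD root replicate 1, CK shoot replicate 3 or MgD shoot replicate 1.

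The difference in summed share of counts (MgD minus CK, percentage points) stayed below 0 under every alternative tried: on leaving out each library it lay between -0.116 and -0.0789 for photosynthesis, -0.0523 and -0.0266 for shoot-typical and -0.0501 and -0.0222 for chloroplast-encoded genes, and for the last it was -0.0816 on summed TPM, against -0.0323 on counts. Of 34 genes named by p, size or call, MYB15 and CYP71A13 changed sign: in limma MYB15 was at -0.13 with pseudocount 1, with or without the filter, and -0.15 with 0.1, and CYP71A13 at -0.045 and -0.42. These settings use the TPM-column version of MgD replicate 3; the cause was not tested further. Medians of 4 of 42 lists moved by more than the median standard error of their genes (aquaporins, hypoxia, iron storage and root hair). The depth of 6147531 counts in MgD replicate 3 limits what is detectable for genes of low level.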

Other observations

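Hypoxia-response genes, singled out after their values were seen, all had a log2 fold change below 0 in MgD roots (16 of 16, median -0.84), yet none stood apart. Within each group the libraries differed widely. ADH1, an alcohol dehydrogenase induced by low oxygen, was at 110.3, 22.2 and 48.0 CPM in MgD roots and at 566, 87.3 and 82.4 CPM in CK roots. LBD41, a transcription factor gene of the same response, was at 15.6, 28.9 and 132 CPM in MgD roots and at 11.9, 73.8 and 228 CPM in CK roots, so that CK replicate 1 was the highest CK library for one gene and the lowest for the other. The list's median was -1.40 without MgD replicate 3 and -0.03 with its TPM-column reads, where ADH1 was at 202 CPM and LBD41 at 325 CPM in that library. In root TRAP RNA the median was -0.55.

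The 2 versions of MgD replicate 3 also differed for single genes. GSTF6, a glutathione transferase, was at 566 CPM in the count column and 68.0 CPM by the TPM-column reads, and NLM1, a NIP-type channel, at 23.7 CPM and 84.4 CPM.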
